A study of Homo sapiens with 9 samples.

Results

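The NRF2 pathway was followed in MDA-MB-231 cells, an established human triple-negative breast cancer (TNBC) line, through 9 genes: NFE2L2, KEAP1, NQO1, GCLM, GCLC, SLC7A11, TXNRD1, SRXN1 and OSGIN1. They were chosen by name as the transcription factor, its inhibitor and well-known target genes. All 9 were found among the 59453 gene names of the count table, and all 9 were among the 16556 genes that passed the expression filter and were tested. RNA-Seq was performed on 3 groups of 3 replicates: untreated cells, cells exposed to the copper chelator TEPA for 8 h, and cells exposed to TEPA for 24 h. The TEPA concentration is 8 mM in the sample labels and 4 mM in the RNA sequencing methods. Per the study's methods, TEPA stock was made up in culture medium. The 1 untreated group without a stated harvest time served both time points, so TEPA and time in culture cannot be told apart. The labels do not say whether replicates were separate cultures, so p-values measure the spread between these libraries, which may be technical.

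NRF2, the protein encoded by NFE2L2, is the main transcription factor of the response to oxidants and electrophiles. KEAP1 holds it in the cytoplasm and presents it to a CUL3 ubiquitin ligase for degradation, and modification of KEAP1 cysteines lets NRF2 accumulate and bind, with a small MAF protein, to antioxidant response elements (AREs) near its target genes. Much of this control acts on the protein, so the mRNA of NFE2L2 is not a measure of NRF2 activity, and the target genes are commonly read in its place. Several targets have further regulators, among them ATF4 for SLC7A11. In a bulk library, a change in RNA per cell and a change in the share of cells that make it cannot be told apart.

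Library totals were 34633755 to 49342659 counts, and the markers of the cell line fitted its label: the 7 mesenchymal and keratin genes VIM, CD44, AXL, CAV1, MSN, KRT18 and KRT8 summed to 6675 to 8282 CPM (counts scaled to library size), PGR was at 0 counts in all 9 libraries, ESR1 had 2 to 9 counts, and ERBB2 mRNA was present at 51.9 to 87.1 CPM. Of 5 fibroblast, 5 leukocyte and 5 endothelial markers, 4, 4 and 3 had a mean of 3 counts or less, and CD3E was at 0. Summed leukocyte markers were 2.93 to 5.17 CPM in untreated libraries, 0.706 to 0.950 CPM at 8 h and 3.78 to 4.98 CPM at 24 h, nearly all from CD14. Summed endothelial markers were 3.55 to 4.51, 1.77 to 2.12 and 7.79 to 9.51 CPM, mostly from PECAM1, and summed fibroblast markers were at most 0.647 CPM in any library. The part of these markers in the results was not tested. Mitochondrially encoded genes took 1.79% to 2.91% of counts in untreated libraries, 3.61% to 4.02% at 8 h and 1.89% to 2.02% at 24 h. Leaving those genes out of the fit changed no call of the 9 genes against untreated cells.

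Levels are given as CPM on library sizes scaled by TMM, as mean ± SD (n = 3), and changes as log2 fold changes with standard errors (SE) from edgeR's quasi-likelihood test on all 16556 genes. A gene was called at a Benjamini-Hochberg adjusted p under 0.05. In CPM per kilobase of the canonical transcript, the only scale on which different genes are compared here, the untreated levels covered a wide range. By this length, TXNRD1 (223 ± 3.20) and NQO1 (192 ± 8.30) were the most abundant, followed by NFE2L2 (73.9 ± 0.99) and KEAP1 (60.2 ± 1.5). GCLM (28.0 ± 2.27) and SLC7A11 (19.9 ± 2.67) came next. OSGIN1 (11.6 ± 1.58) and GCLC (11.1 ± 0.29) overlapped between libraries and could not be ordered, and SRXN1 (4.21 ± 0.33) was lowest. The same order of means held at 8 h and at 24 h. At 24 h it was SLC7A11 (9.39 ± 1.23) and OSGIN1 (8.89 ± 0.41) that overlapped. Levels and order depend on the length chosen, because pairs were counted over all exons of a gene. The authors counted with another annotation release, whose exons may differ from the GENCODE release 44 exons given here. All exons of NFE2L2 span 14975 bases, beside 2446 in its canonical transcript. For TXNRD1 it was 6710 beside 3860, for GCLC 8618 beside 3785 and for OSGIN1 5558 beside 1922. The lengths differed less for KEAP1, NQO1 and GCLM and were equal for SLC7A11 and SRXN1. For SRXN1, 90.66% of the exon bases also belong to another gene on its strand. Its level and its place as lowest are therefore uncertain.

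The promoters of these genes were searched for the ARE core on both strands, spelled TGACNNNGC or TGAGNNNGC, in windows of 300 bases from 250 before to 50 after the RefSeq gene start (GRCh38.p14). Of the 8 genes with a window, 5 held at least 1 match (NFE2L2, NQO1, GCLM, TXNRD1 and OSGIN1), and KEAP1, GCLC and SRXN1 held none. Sequence outside the windows was not searched, so elements further from the start would be missed in any of these genes. Among all 27305 promoters 29.44% held a match, and among the 11042 promoters of tested genes 32.96%, so the letters are common. 1 match for each of 4 target genes that were lower at 24 h is shown, on the gene's strand, with the match in capitals and 20 bases on either side. In NQO1, GCLM and OSGIN1 the capitals read as the core on the opposite strand. The stretches lie at chr16:69726651-69726699 for NQO1, 119 to 111 bases before the start, and at chr1:93909436-93909484 for GCLM, 34 to 26 bases before it. Those of TXNRD1 and OSGIN1, at chr12:104215660-104215708 and chr16:83953121-83953169, both lie 99 to 91 bases before the start. A match is a description of the sequence and not a shown binding site.
NQO1: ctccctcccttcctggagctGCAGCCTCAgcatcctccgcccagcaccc
GCLM: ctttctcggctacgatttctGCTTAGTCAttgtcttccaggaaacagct
TXNRD1: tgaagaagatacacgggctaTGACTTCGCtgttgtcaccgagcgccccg
OSGIN1: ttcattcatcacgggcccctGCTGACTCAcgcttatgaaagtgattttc

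To examine how the pathway moved with TEPA, the 9 genes were read from the comparison of each time with untreated cells. After 8 h the directions were mixed: SRXN1, OSGIN1 and SLC7A11 rose, and NFE2L2, KEAP1, NQO1 and GCLC fell, all by less than 0.5 on the log2 scale. After 24 h the genes moved mostly one way, with SLC7A11, GCLC, NQO1, OSGIN1, TXNRD1, GCLM and NFE2L2 lower and none called higher. SLC7A11 had the largest change of the 9, to 0.471 times its untreated level. At 8 h, 7 of 9 were called in either direction, beside 49.6% of all genes tested, with 3 higher beside a background of 25.2% and 4 lower beside 24.5%. At 24 h, 7 of 9 were called, beside 52.5% of all genes in either direction, 26.8% lower and 25.7% higher. The 8 h counts lie nearer the background than the 24 h count of lower genes. Beyond a log2 fold change of 0.5, 0 of the 9 were called at 8 h, where 17.8% of all genes were, and 2 were called lower at 24 h, where 18.7% of all genes were called in either direction and 8.46% lower. The median log2 fold change of the 9 genes was -0.07 at 8 h and -0.25 at 24 h, while over all genes tested it was -0.0013 and 0.0023. The comparisons share the untreated libraries, so they are given side by side only.

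**Figure D1:**
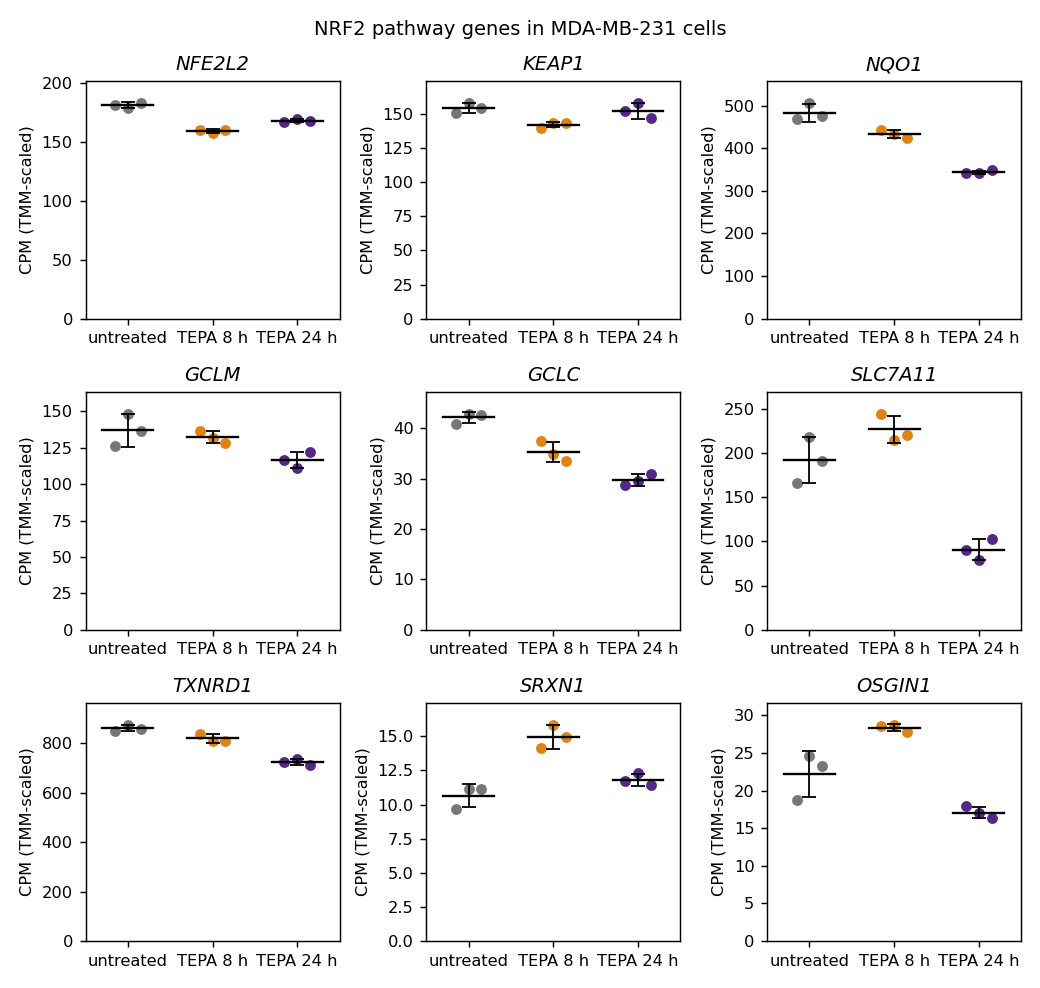
Expression of each NRF2 pathway gene in CPM on TMM-scaled library sizes (vertical axis, starting at 0), with 1 point per library in untreated cells (grey), TEPA 8 h (orange) and TEPA 24 h (purple). Lines are means and error bars SD (n = 3). SLC7A11 lies at 79.2 to 103 CPM at 24 h, below all 6 other libraries, whereas SRXN1 and OSGIN1 are highest at 8 h.

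**Figure D2:**
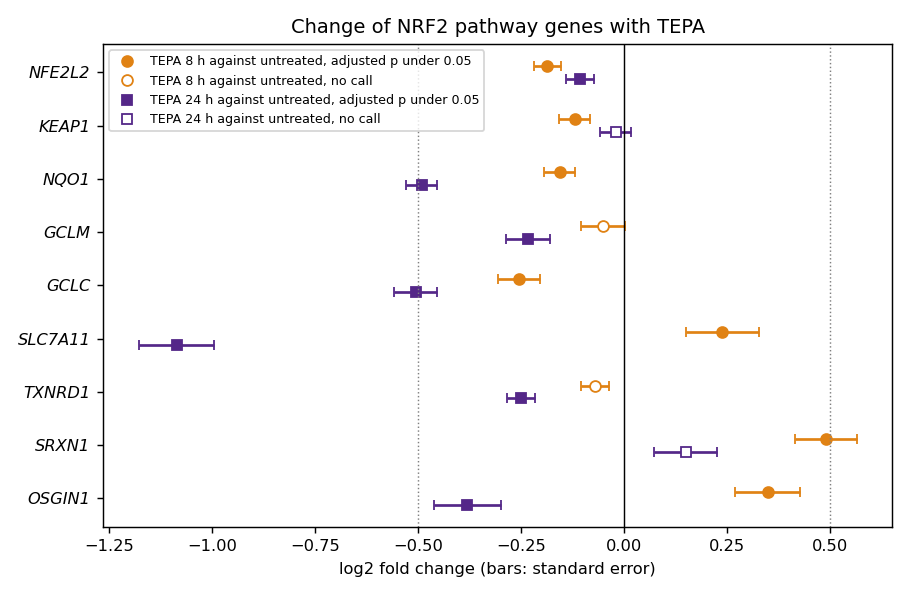
Log2 fold change of each gene (horizontal axis) against untreated cells at 8 h (orange circles) and 24 h (purple squares), with bars of 1 standard error. Filled symbols passed an adjusted p under 0.05, open symbols did not, and the dotted lines mark 0.5 in either direction. At 24 h all filled symbols lie below 0, while at 8 h they lie on both sides.

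Among the regulators, NFE2L2 (chr2:177218667-177392756, minus strand, hg38) encodes NRF2 itself. It was measured at 181, 178 and 183 CPM in untreated libraries, 160, 157 and 160 CPM at 8 h, and 166, 169 and 168 CPM at 24 h. Every TEPA library was below every untreated one, and the groups were tight. The log2 fold change was -0.19 (SE 0.03, adjusted p = 0.00023) at 8 h, a decrease to 0.879 times. At 24 h it was -0.11 (SE 0.03, adjusted p = 0.012), a call that was lost without untreated replicate 3 (-0.10, adjusted p = 0.053) and without TEPA 24 h replicate 1 (-0.10, adjusted p = 0.056). Between 8 h and 24 h its change of 0.08 missed the threshold (adjusted p = 0.052), and it passed in several other fits, among them those without untreated replicate 1 (adjusted p = 0.035) or 2 (adjusted p = 0.042).

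KEAP1 (chr19:10486125-10503558, minus strand), the inhibitor of NRF2, was at 151, 158 and 154 CPM in untreated libraries. It was at 140, 143 and 143 CPM at 8 h, and at 152, 158 and 147 CPM at 24 h. The 8 h libraries lay below both other groups, and the 24 h libraries overlapped the untreated ones. Its log2 fold change was -0.12 (SE 0.04, adjusted p = 0.016) at 8 h and -0.02 (SE 0.04, adjusted p = 0.69) at 24 h. The ratio of KEAP1 to NFE2L2 counts, a comparison of inhibitor and factor within each library, was 0.833 to 0.889 in untreated cells, 0.878 to 0.913 at 8 h and 0.875 to 0.935 at 24 h. The groups overlapped, with an exact two-sided permutation p of 0.2 for each time against untreated cells.

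SLC7A11 (chr4:138164097-138242349, minus strand) encodes xCT, the cystine importer that feeds glutathione synthesis. It was measured at 167, 218 and 192 CPM in untreated libraries, a wide spread. At 8 h it was at 245, 215 and 221 CPM, and at 24 h at 89.9, 79.2 and 103 CPM. The 8 h and untreated libraries overlapped, and all 3 libraries at 24 h were below all others. At 24 h the log2 fold change was -1.09 (SE 0.09, adjusted p = 9.4e-08), at percentile 2.46 of all genes tested. Leaving out each library in turn gave -1.18 to -0.99. At 8 h it was 0.24 (SE 0.09, adjusted p = 0.035), and this call was fragile. It was lost with DESeq2 (0.24, adjusted p = 0.14) and with the replicate number as a block (0.24, adjusted p = 0.055). It was also lost without untreated replicate 1 (0.14, adjusted p = 0.14), untreated replicate 3 (0.23, adjusted p = 0.089), TEPA 8 h replicate 1 (0.18, adjusted p = 0.16) or TEPA 8 h replicate 3 (0.25, adjusted p = 0.065).

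SLC3A2 encodes the heavy chain that carries xCT to the membrane, and was singled out after its values were seen. It rose at 8 h, by 0.39 on the log2 scale (adjusted p = 7.0e-06), and was not called at 24 h (-0.05, adjusted p = 0.43). The ratio of SLC7A11 to SLC3A2 counts was 0.588 to 0.668 in untreated libraries, 0.547 to 0.604 at 8 h and 0.262 to 0.370 at 24 h. The 24 h libraries did not overlap either other group, with an exact two-sided permutation p of 0.1, the smallest that 3 libraries against 3 allow.

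GCLC (chr6:53497341-53616970, minus strand) and GCLM (chr1:93885199-93909456, minus strand) encode the catalytic and the modifier subunit of glutamate-cysteine ligase, which makes the first intermediate of glutathione. GCLC was at 40.9, 42.9 and 42.7 CPM in untreated libraries, 37.4, 34.9 and 33.6 CPM at 8 h, and 28.7, 29.5 and 30.9 CPM at 24 h. The 3 groups did not overlap and stepped down from untreated to 8 h to 24 h. GCLC fell by 0.26 on the log2 scale at 8 h (SE 0.05, adjusted p = 0.00069) and by 0.51 at 24 h (SE 0.05, adjusted p = 7.9e-07).

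GCLM was at 126, 148 and 136 CPM in untreated libraries, 137, 132 and 128 CPM at 8 h, and 117, 111 and 122 CPM at 24 h. The untreated and 8 h libraries overlapped, and the 24 h libraries lay below both. Its log2 fold change was -0.05 (SE 0.05, adjusted p = 0.45) at 8 h and -0.23 (SE 0.05, adjusted p = 0.0017) at 24 h. The ratio of GCLM to GCLC counts was 3.09 to 3.46 in untreated libraries, 3.66 to 3.82 at 8 h and 3.76 to 4.06 at 24 h. Both TEPA groups lay above the untreated one, each with an exact two-sided permutation p of 0.1, and they overlapped each other (p = 0.3).

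**Figure D3:**
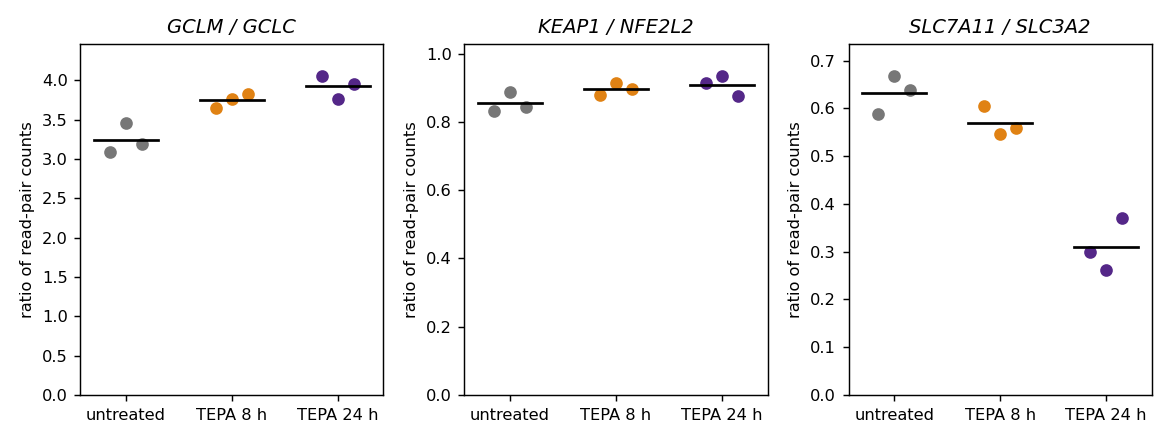
Ratios of read-pair counts within each library (vertical axes, starting at 0) for GCLM over GCLC, KEAP1 over NFE2L2 and SLC7A11 over SLC3A2, with 1 point per library and lines at the means (n = 3). The SLC7A11 ratio at 24 h lies at 0.262 to 0.370, below the other 2 groups, and the GCLM ratio lies at 3.66 or above in all TEPA libraries.

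NQO1 (chr16:69706996-69726668, minus strand) encodes a quinone reductase and is among the most widely used readouts of NRF2. It was at 468, 507 and 475 CPM in untreated libraries, 444, 433 and 424 CPM at 8 h, and 341, 343 and 348 CPM at 24 h. The 3 groups were apart and stepped down in that order. NQO1 fell by 0.16 on the log2 scale at 8 h (SE 0.04, adjusted p = 0.0027) and by 0.49 at 24 h (SE 0.04, adjusted p = 3.6e-08), to 0.711 times its untreated level.

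TXNRD1 (chr12:104215779-104350307, plus strand) encodes the cytosolic thioredoxin reductase. It was at 851, 875 and 858 CPM in untreated libraries, 840, 809 and 810 CPM at 8 h, and 725, 736 and 712 CPM at 24 h. The groups did not overlap at either time, although the 8 h change of -0.07 (SE 0.03, adjusted p = 0.095) was called only when untreated replicate 1 was omitted (-0.08, adjusted p = 0.049). It fell by 0.25 at 24 h (SE 0.03, adjusted p = 1.6e-05).

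OSGIN1 (chr16:83931311-83966332, plus strand) encodes a growth inhibitor induced by oxidative stress. It was at 18.8, 24.6 and 23.3 CPM in untreated libraries, 28.5, 28.7 and 27.8 CPM at 8 h, and 17.9, 17.0 and 16.3 CPM at 24 h. The 8 h libraries were all the highest and the 24 h libraries all the lowest. OSGIN1 rose by 0.35 on the log2 scale at 8 h (SE 0.08, adjusted p = 0.0017) and fell by 0.38 at 24 h (SE 0.08, adjusted p = 0.00094).

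SRXN1 (chr20:646615-653200, minus strand) encodes sulfiredoxin, which repairs overoxidized peroxiredoxins. It was at 9.68, 11.1 and 11.1 CPM in untreated libraries, 14.1, 15.8 and 14.9 CPM at 8 h, and 11.7, 12.3 and 11.5 CPM at 24 h. Both TEPA groups lay above the untreated one, and the 8 h libraries were highest. The log2 fold change was 0.49 (SE 0.08, adjusted p = 6.3e-05) at 8 h and 0.15 (SE 0.08, adjusted p = 0.11) at 24 h. In GENCODE release 44, 2292 of its 2528 exon bases (90.66%) also belong to another gene on the same strand, ENSG00000270299. The authors counted with another annotation release. If it held the same overlap, read pairs there could not be assigned to 1 of the 2 genes, so both level and change are uncertain. The other 8 genes share no exon base of the canonical transcript with another gene on their strand.

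The same fit compared 24 h with 8 h directly, which asks whether the 2 responses differed. Of the 9 genes, 7 were lower at 24 h than at 8 h and KEAP1 was higher, beside a background of 54.8% called in either direction, 28.8% lower and 26% higher. SLC7A11 differed most, at -1.33 (SE 0.09, adjusted p = 1.1e-08), and OSGIN1 followed at -0.73 (SE 0.08, adjusted p = 1.5e-06), and these 2 were the members beyond the 0.5 limit, which 21.2% of all genes passed (10.8% lower and 10.4% higher). SRXN1 (-0.34, adjusted p = 0.0011), NQO1 (-0.33, adjusted p = 2.0e-06), GCLC (-0.25, adjusted p = 0.00078), GCLM (-0.18, adjusted p = 0.0090) and TXNRD1 (-0.18, adjusted p = 0.00034) were also lower. The median of the 9 was -0.25, and that of all genes tested -0.016. The KEAP1 difference was 0.10 (SE 0.04, adjusted p = 0.036), and it was lost without any 1 of the 3 libraries at 8 h, or without TEPA 24 h replicate 1 or 2 (adjusted p 0.057 to 0.13). SLC7A11 and OSGIN1 were thus called in opposite directions at the 2 times, with the 8 h call of SLC7A11 fragile as above.

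CPM groups that did not overlap were counted as well. At 8 h, 2 of the 9 genes lay wholly above and 5 wholly below the untreated libraries, beside 57.8% of all genes apart in either direction (29.2% above and 28.6% below). At 24 h it was 1 above and 7 below, beside 57.2% (28.4% above and 28.9% below). Between 24 h and 8 h it was 2 above and 7 below, beside 62% (29.6% above and 32.4% below).

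To place the 9 genes in their pathway, 81 other genes were read in 7 lists written from knowledge of the pathway, of which 75 were tested. Of these, 16 were higher and 36 lower at 8 h, and 14 higher and 33 lower at 24 h, beside 25.2% higher and 24.5% lower at 8 h and 25.7% higher and 26.8% lower at 24 h over all genes tested. These shares are the background for each list described next. Without untreated replicate 3, the number higher at 8 h was 10. The median log2 fold change was -0.09 at 8 h and -0.08 at 24 h. Between 24 h and 8 h, 24 were higher and 24 lower, near the 26% higher and 28.8% lower over all genes. Beyond the 0.5 limit, 5 were higher and 14 lower at 8 h, and 3 higher and 9 lower at 24 h, beside 10.1% higher and 7.67% lower at 8 h and 10.2% higher and 8.46% lower at 24 h over all genes.

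**Figure D4:**
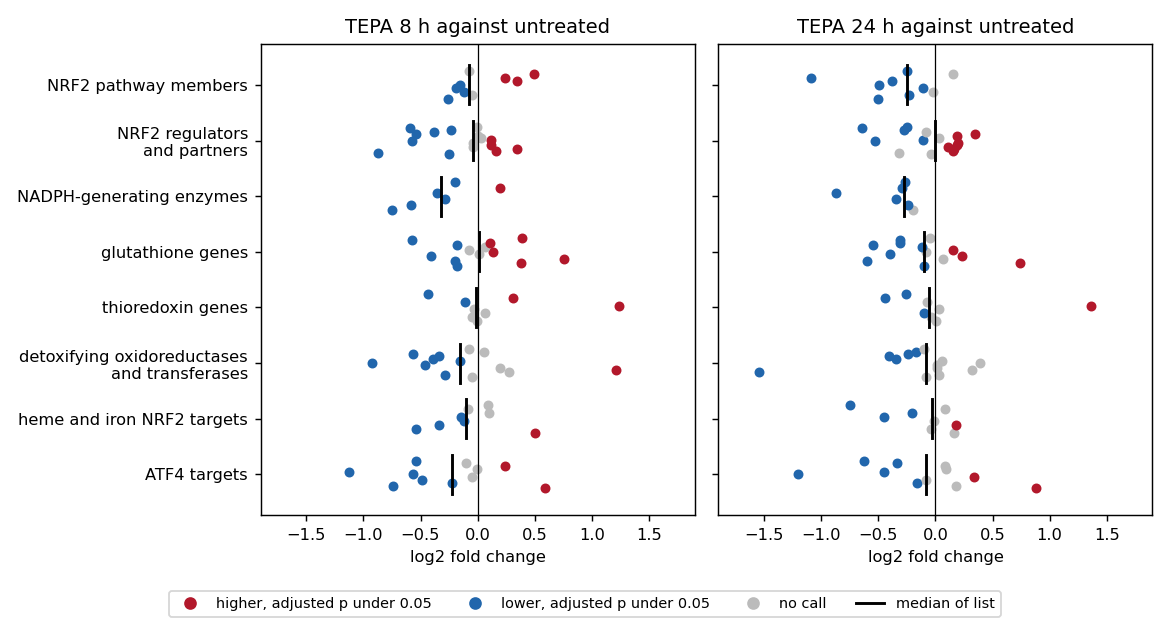
Log2 fold change of each tested gene (points, horizontal axis) in the NRF2 members and 7 other lists (rows) at 8 h (left) and 24 h (right) against untreated cells. Red and blue points were called higher and lower at an adjusted p under 0.05, grey points were not called, and black bars are list medians. The NADPH list has its median at -0.32 at 8 h and -0.28 at 24 h.

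The regulators and partners of NRF2 moved in both directions, with 4 of 16 higher and 7 lower at 8 h, and 7 higher and 5 lower at 24 h. At 8 h the 4 were CREBBP (0.35, adjusted p = 0.00031), BTRC (0.16, adjusted p = 0.016), DPP3 and MAFG. At 24 h they were CUL3, DPP3, NFE2L1, NFE2L3, GSK3B, CREBBP and BTRC. GSK3B, CREBBP and BTRC rose by 0.20, 0.16 and 0.15 there (adjusted p = 0.00060, 0.044 and 0.020). SYVN1 was lower only at 24 h (-0.24, adjusted p = 0.00041), and MAFK was called at neither time. The numbers higher changed when single libraries were left out. At 8 h only 1 was higher without untreated replicate 3 or TEPA 8 h replicate 2, and 2 without TEPA 8 h replicate 3. At 24 h 4 were higher without untreated replicate 3 or TEPA 24 h replicate 1. SQSTM1 encodes p62, which draws KEAP1 into autophagy and is itself an NRF2 target. It was at 1219, 1128 and 1120 CPM in untreated libraries, 772, 760 and 766 CPM at 8 h, and 725, 776 and 713 CPM at 24 h. The TEPA libraries were all far below the untreated ones, with log2 fold changes of -0.59 (SE 0.04, adjusted p = 3.05e-08) and -0.65 (SE 0.04, adjusted p = 5.5e-09). MAFF, a small MAF partner of NRF2, fell by 0.58 and 0.53, whereas MAFG, another, rose by 0.12 (adjusted p = 0.018) at 8 h and fell by 0.11 (adjusted p = 0.030) at 24 h. The 8 h call of MAFG was lost without untreated replicate 3 or TEPA 8 h replicate 2 or 3 (0.09 to 0.11, adjusted p 0.069 to 0.13). Its 24 h call was lost with upper-quartile factors (-0.08, adjusted p = 0.089) and without untreated replicate 2 or TEPA 24 h replicate 1 or 3 (-0.11 to -0.09, adjusted p 0.073 to 0.10).

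Of the repressors that compete with NRF2 for AREs, BACH1 fell by 0.25 at 8 h (adjusted p = 0.0083) and was at -0.04 at 24 h (adjusted p = 0.68). BACH2, expressed at 1.67 to 4.13 CPM, fell by 0.87 at 8 h (adjusted p = 0.00048) and was at -0.32 at 24 h (adjusted p = 0.10), or -0.42 without untreated replicate 2 (adjusted p = 0.048). RBX1, the RING subunit of the KEAP1 ligase, was lower at both times, at -0.23 and -0.27. CUL3, its scaffold, was at -0.04 at 8 h (adjusted p = 0.44) and rose by 0.11 at 24 h (adjusted p = 0.022), a call lost without untreated replicate 3 (adjusted p = 0.070), TEPA 24 h replicate 1 (adjusted p = 0.093) or TEPA 24 h replicate 3 (adjusted p = 0.050). PALB2 and DPP3 encode proteins that bind KEAP1. PALB2 fell by 0.39 at 8 h (adjusted p = 4.0e-05) and was at -0.08 at 24 h (adjusted p = 0.24), and DPP3 rose at both times, by 0.12 (adjusted p = 0.019) and 0.19 (adjusted p = 0.00082). The 8 h call of DPP3 was lost with no filter (adjusted p = 0.059) and without untreated replicate 2 or 3 or TEPA 8 h replicate 2 or 3 (0.10 to 0.12, adjusted p 0.062 to 0.089).

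NFE2L1 and NFE2L3, 2 relatives of NFE2L2, were called higher at 24 h. NFE2L1, which encodes the NRF1 factor of proteasome genes, was at 437, 421 and 418 CPM in untreated libraries, 420, 427 and 433 CPM at 8 h, and 480, 497 and 477 CPM at 24 h. The 24 h libraries were above all others, and the gene rose by 0.19 (adjusted p = 0.00028). At 8 h its change was near 0 (0.0047, adjusted p = 0.92), a value whose sign depended on the normalization. NFE2L3 was at 165, 149 and 152 CPM in untreated libraries, 105, 106 and 109 CPM at 8 h, and 204, 195 and 192 CPM at 24 h. It fell by 0.54 at 8 h (adjusted p = 1.1e-07) and rose by 0.35 at 24 h (adjusted p = 6.1e-06).

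Enzymes that supply NADPH, the reducing agent of both the glutathione and thioredoxin systems, were lower at 8 h in 5 of 6 cases and at 24 h in 5 of 6, with medians of -0.32 and -0.28, where 24.5% and 26.8% of all genes were lower. PGD, of the pentose phosphate pathway, was at 335, 308 and 316 CPM in untreated libraries, 252, 252 and 244 CPM at 8 h, and 173, 182 and 170 CPM at 24 h. The groups were apart and stepped down as those of NQO1 and GCLC did, by 0.36 and 0.87 on the log2 scale (adjusted p = 3.0e-06 and 1.9e-10). IDH1, the cytosolic isocitrate dehydrogenase, fell by 0.59 and 0.24. The 1 gene of the list called higher, TALDO1 at 8 h (0.20, adjusted p = 0.00014), encodes transaldolase of the non-oxidative branch and was named after its values were seen. At 24 h TALDO1 fell by 0.29 (adjusted p = 2.7e-06).

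Among 13 tested glutathione genes, 5 were higher and 5 lower at 8 h, and 3 higher and 7 lower at 24 h. Without TEPA 8 h replicate 1, 3 were higher at 8 h. ABCC2, an exporter of glutathione conjugates, rose at both times, by 0.38 (adjusted p = 0.012) and 0.74 (adjusted p = 4.1e-05). Omitting TEPA 8 h replicate 1 ended its 8 h call (0.27, adjusted p = 0.079). ABCC3, a related exporter, fell by 0.20 and 0.60, and MGST2, a microsomal glutathione transferase, by 0.57 and 0.31. Of 8 thioredoxin genes, 2 were higher and 2 lower at 8 h, and 1 higher and 3 lower at 24 h. The number lower fell to 1 at 8 h without untreated replicate 3, any of the 3 TEPA 8 h libraries or TEPA 24 h replicate 1. It fell to 1 at 24 h with DESeq2 and without untreated replicate 2 or TEPA 24 h replicate 1 or 3. TXNIP, which binds and inhibits thioredoxin and responds to glucose, was at 44.5, 36.4 and 34.6 CPM in untreated libraries, 91.9, 90.2 and 90.6 CPM at 8 h, and 99.4, 103 and 95.1 CPM at 24 h. All TEPA libraries were above all untreated ones, with log2 fold changes of 1.24 (adjusted p = 2.6e-09) and 1.37 (adjusted p = 3.7e-10). TXNRD2, the mitochondrial thioredoxin reductase, rose by 0.31 at 8 h (adjusted p = 0.00079) and fell by 0.44 at 24 h (adjusted p = 3.2e-05). TXNRD3, a further reductase of the family, fell by 0.44 (adjusted p = 0.0012) and 0.25 (adjusted p = 0.030), and the 24 h call was lost with DESeq2 (adjusted p = 0.084), with no filter (adjusted p = 0.071) and without untreated replicate 1 or 2 or TEPA 24 h replicate 1 or 3 (-0.24 to -0.23, adjusted p 0.054 to 0.10).

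Of 17 detoxifying oxidoreductases and transferases 13 were tested, with 1 higher and 7 lower at 8 h, and 0 higher and 5 lower at 24 h. AKR1C1, an aldo-keto reductase whose reads can be shared with its close paralogs, was the 1 called higher, by 1.22 at 8 h (adjusted p = 1.9e-06), from 2.29 to 2.47 CPM in untreated libraries to 4.84 to 6.57. At 24 h it was at 0.32 (adjusted p = 0.062), and it passed with upper-quartile factors (0.35, adjusted p = 0.046) and without TEPA 8 h replicate 1 (0.32, adjusted p = 0.038) or TEPA 24 h replicate 2 (0.39, adjusted p = 0.049). ALDH3A1, an aldehyde dehydrogenase, fell by 0.92 at 8 h (adjusted p = 0.00064) and was at 0.39 at 24 h (adjusted p = 0.055), passing the threshold only in some fits, among them the one that omitted untreated replicate 1 (0.69, adjusted p = 6.9e-05). PIR, an iron-binding NRF2 target, fell by 0.57 and 0.24.

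Heme and iron genes were higher in 1 and lower in 4 of 8 cases at 8 h, and higher in 1 and lower in 3 at 24 h. At 8 h 2 were lower without TEPA 8 h replicate 2, and 2 higher without untreated replicate 2. HMOX1, the stress-induced heme oxygenase, was at 24.1, 27.0 and 26.1 CPM in untreated libraries, 23.7, 23.4 and 25.7 CPM at 8 h, and 27.1, 30.3 and 24.7 CPM at 24 h. The groups overlapped, with log2 fold changes of -0.09 (SE 0.07, adjusted p = 0.35) and 0.09 (SE 0.07, adjusted p = 0.33). Between 8 h and 24 h the HMOX1 change of 0.17 missed the threshold (adjusted p = 0.053). It passed in several other fits, among them DESeq2 (0.18, adjusted p = 0.037) and RLE factors (0.19, adjusted p = 0.039). SLC48A1, a heme transporter, fell by 0.75 at 24 h (adjusted p = 1.3e-06) and was at 0.09 at 8 h (adjusted p = 0.37). BLVRA, a biliverdin reductase, fell by 0.54 at 8 h (adjusted p = 2.2e-06) and was at -0.04 at 24 h (adjusted p = 0.55). ABCB6, a porphyrin transporter, rose by 0.51 at 8 h (adjusted p = 0.0031) and was at 0.17 at 24 h (adjusted p = 0.29).

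ATF4, the integrated stress response factor that also drives SLC7A11, was lower at both times, at -0.22 (adjusted p = 0.0010) and -0.16 (adjusted p = 0.0086). Of the 11 tested genes of the ATF4 list, which include ATF4 itself, 2 were higher and 6 lower at 8 h, and 2 higher and 5 lower at 24 h. The higher counts were not stable. At 8 h 0 were higher without untreated replicate 3 or TEPA 8 h replicate 3, and 1 without untreated replicate 2 or TEPA 8 h replicate 2. At 24 h 4 were higher without untreated replicate 1, and 1 when any other library but TEPA 24 h replicate 3 was left out. DDIT3, which encodes CHOP, fell by 0.57 at the first time (adjusted p = 8.3e-05) and by 1.20 at the second (adjusted p = 4.0e-08). DDIT4, an inhibitor of mTORC1, fell by 1.12 and 0.45, and ATF3, a stress-induced transcription factor, fell by 0.74 at 8 h (adjusted p = 0.0016) and was at 0.18 at 24 h (adjusted p = 0.33). The genes of the list called higher were ASNS, SESN2 and CHAC1, named after their values were seen. ASNS, the asparagine synthetase, was at 1.17 to 1.44 CPM in untreated libraries, 1.73 to 2.31 CPM at 8 h and 1.98 to 2.84 CPM at 24 h, and rose by 0.59 (SE 0.19, adjusted p = 0.016) and 0.88 (SE 0.18, adjusted p = 0.00065). The 8 h call of ASNS was lost without untreated replicate 3 (adjusted p = 0.069) or TEPA 8 h replicate 3 (adjusted p = 0.078). SESN2, a sestrin, rose by 0.24 at 8 h (adjusted p = 0.020) and was at 0.08 at 24 h (adjusted p = 0.41). Its 8 h call was lost without untreated replicate 2 or 3 or TEPA 8 h replicate 2 or 3 (0.17 to 0.23, adjusted p 0.058 to 0.10), and it passed at 24 h without untreated replicate 1 (0.17, adjusted p = 0.048). CHAC1, a glutathione-degrading enzyme, was at -0.05 at 8 h (adjusted p = 0.79) and rose by 0.34 at 24 h (adjusted p = 0.046). The 24 h call of CHAC1 was lost with only the 2 groups compared (adjusted p = 0.073) and in 7 of 9 fits that left out 1 library: each but untreated replicate 1 and TEPA 24 h replicate 3 (0.17 to 0.34, adjusted p 0.054 to 0.25).

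For NFE2L2 and NQO1, the genes of most similar pattern were sought among 11919 genes with a mean of at least 100 counts, by Pearson correlation of log2 CPM over the 9 libraries. These 9 points fall into 3 groups, so the values mainly describe likeness of group means. For NFE2L2 they were LINC02870 (0.991), PRNP (0.990), PDIA6 (0.989), PHLDA1 (0.989) and LIMS2 (0.988), which like NFE2L2 were lowest at 8 h. For NQO1 they were FH (0.996), THOC7 (0.994), TAMM41 (0.994), ANP32A (0.993) and CSTF3 (0.993), which stepped down from untreated to 8 h to 24 h. None of the other 8 NRF2 pathway genes was among the 5 nearest of either. Several still correlated closely with NQO1: TXNRD1 (0.986), GCLC (0.963), GCLM (0.891) and SLC7A11 (0.875). OSGIN1 (0.661) and NFE2L2 (0.367) did so less, and KEAP1 (-0.023) and SRXN1 (-0.080) hardly at all.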

How the data were processed

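RNA-Seq libraries of MDA-MB-231 cells were made by the study with a stranded mRNA protocol and sequenced as read pairs. The authors checked reads with FastQC, aligned them to hg38 with HISAT2 and counted pairs per gene name over exons with featureCounts, using strand. The deposited values are raw counts for 59453 gene names in 9 libraries, with no normalization and no column left out. Library totals were 34633755 to 49342659 counts, and the spread of replicates already holds the counting error.

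Groups came from the sample labels. Analysis used edgeR 4.0.16 (R 4.3.3): filterByExpr with a minimum count of 10 retained 16556 genes, TMM factors were 0.978 to 1.039, and 1 quasi-likelihood model (glmQLFit, glmQLFTest) covered the 9 libraries. Benjamini-Hochberg adjustment ran across the 16556 genes. The biological coefficient of variation was 0.0481. The SE of a log2 fold change was taken as its absolute value over sqrt(F). Count ratios used exact permutation tests. Positions and lengths are from GENCODE release 44 (hg38), and promoter windows from RefSeq (GRCh38.p14). GENCODE release 44 is not the annotation the authors counted with. The procedure was tested on simulated counts.

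The members and lists were chosen with earlier results of these data known. Genes named beside the 9 members are the NRF2 regulators, HMOX1, ATF4, SQSTM1, and of every other list up to 3 called genes with the largest change against untreated cells and a mean of at least 100 counts. A gene that met this rule is not reported here. The alternatives tried were DESeq2 1.42.0, RLE factors, upper-quartile factors, 2 other filters, a log2 limit of 0.5, only the groups compared, mitochondrially encoded genes left out, the replicate number as a block, and each library left out in turn. The study's other cell lines and assays were not analysed here.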

Additional observations from a re-analysis of the deposited data

Results flagged for a closer look

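The direct comparison of 24 h with 8 h is also the test of whether the 2 changes against the shared untreated libraries differed, and it flagged 8 of the 9 NRF2 pathway genes, beside 54.8% of all genes tested. The 24 h change minus the 8 h change was -1.33 for SLC7A11 (adjusted p = 1.1e-08), -0.73 for OSGIN1, -0.34 for SRXN1, -0.33 for NQO1, -0.25 for GCLC, -0.18 for GCLM, -0.18 for TXNRD1 and 0.10 for KEAP1.

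Of 34 other genes named from the pathway lists and compared this way, 24 differed, beside 54.8% of all genes tested. Many of the 34 were named for large changes in these same data or after their values were seen. Their share is therefore raised by the choice and is not a result about the pathway. The difference was negative for AKR1C1 (-0.89), SLC48A1 (-0.84), TXNRD2 (-0.75), DDIT3 (-0.63), PGD (-0.51), TALDO1 (-0.49), ABCC3 (-0.40), ABCB6 (-0.34) and MAFG (-0.23). It was positive for ALDH3A1 (1.32), ATF3 (0.92), NFE2L3 (0.89), DDIT4 (0.67), BACH2 (0.55), BLVRA (0.49), CHAC1 (0.39), ABCC2 (0.36), IDH1 (0.34), PIR (0.33), PALB2 (0.31), MGST2 (0.26), BACH1 (0.21), NFE2L1 (0.18) and CUL3 (0.15). Calls of 4 of these rested on single libraries. The difference for ABCB6 was no longer called with DESeq2 (adjusted p = 0.055) or without TEPA 8 h replicate 2 (-0.27, adjusted p = 0.12), TEPA 8 h replicate 3 (-0.31, adjusted p = 0.085) or TEPA 24 h replicate 1 (-0.27, adjusted p = 0.12). That for ABCC2 was not called without TEPA 8 h replicate 2 (0.29, adjusted p = 0.055). BACH1 no longer differed on leaving out TEPA 8 h replicate 2 (0.21, adjusted p = 0.050), TEPA 8 h replicate 3 (0.17, adjusted p = 0.087) or TEPA 24 h replicate 3 (0.13, adjusted p = 0.11). That for CHAC1 was lost without TEPA 8 h replicate 2 or 3 or TEPA 24 h replicate 1 or 2 (0.32 to 0.39, adjusted p 0.056 to 0.094). The groups of 3 libraries are too small for a test of single libraries that stand apart.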

How the results depend on the processing

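Over 17 alternatives for each of 27 changes of the 9 genes, 434 kept their direction and side of the threshold, 13 lost a call, 9 gained one and 3 changed sign. The sign changes were all of values near 0 that were not called. KEAP1 at 24 h was 0.0066 with upper-quartile factors and -0.048 to 0.0057 when each library was left out, and GCLM at 8 h was -0.11 to 0.0034 (positive without untreated replicate 2). Of the other named genes, BLVRA at 24 h was -0.082 to 0.0265, BACH1 at 24 h -0.12 to 0.026 and CHAC1 at 8 h -0.22 to 0.15 when each library was left out. NFE2L1 at 8 h was -0.000126 with RLE factors, -0.000102 with DESeq2, -0.00766 with no filter, and -0.015 to 0.022 when each library was left out. NFE2L2 was called higher at 24 h than at 8 h, which raised the count of higher members from 1 to 2, with RLE factors, upper-quartile factors, DESeq2, 10 counts in every library, only the 2 groups, and mitochondrially encoded genes left out.

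A log2 limit of 0.5 left 0 higher and 0 lower members at 8 h, 2 lower at 24 h, and 0 higher and 2 lower between the times. For the other lists it left 5 higher and 14 lower at 8 h, 3 and 9 at 24 h, and 8 and 7 between the times. Leaving out each library gave 2 to 3 members higher and 4 to 5 lower at 8 h, 0 higher and 6 to 7 lower at 24 h, and 0 to 2 higher and 7 lower between the times. For the other lists it gave 10 to 16 higher and 33 to 36 lower at 8 h (10 without untreated replicate 3), 10 to 16 higher and 28 to 34 lower at 24 h, and 21 to 27 higher and 21 to 25 lower between the times. The cause was not tested.

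No pairing by replicate number was seen: deviations from the group means correlated from -0.080 to 0.038 for libraries of the same number and from -0.054 to 0.073 for the others. With 3 libraries per group this check cannot show that none exists. With the number as a block, 2 members were higher and 4 lower at 8 h, 0 and 7 at 24 h, and 1 and 7 between the times. No replicate pair agreed within sampling noise (chi-square per gene 2.39 to 21.3, the largest between untreated replicates 1 and 2). SRXN1 had the fewest counts of the 9 genes, 363 to 606 in a library, which limits its precision. It was not the least precise member: its SE at 8 h was 0.075, beside 0.079 for OSGIN1 and 0.089 for SLC7A11.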

Other observations

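The lowest 24 h change in the pathway lists was that of AKR1B10, which lies outside the naming rule, was chosen after its values were seen, and encodes an aldo-keto reductase induced by NRF2. It was at 2.56, 2.65 and 2.92 CPM in untreated libraries, 3.65, 3.22 and 2.94 CPM at 8 h, and 0.961, 1.02 and 0.779 CPM at 24 h. All 3 libraries at 24 h lay below all others, and it fell by 1.54 on the log2 scale there (adjusted p = 8.9e-07). Its 8 h change of 0.27 was not called (adjusted p = 0.11).

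GPX4, the selenoenzyme that reduces lipid peroxides with glutathione, and GSR, glutathione reductase, were also seen first and named after. GPX4 fell by 0.41 at 8 h and rose by 0.23 (adjusted p = 0.0022) at 24 h. GSR was at 0.0100 at 8 h (adjusted p = 0.87) and fell by 0.40 at 24 h. The ferritin chains FTH1 and FTL, NRF2 targets with many processed copies in the genome, fell by 0.45 and 0.20 at 24 h. At 8 h FTH1 fell by 0.15 (adjusted p = 0.0165), and FTL was at 0.10 and not called (adjusted p = 0.055).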
